A study of Canis lupus familiaris with 12 samples.

Results

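Amphiregulin (AREG), the inducible cyclooxygenase PTGS2 and the cytosolic phospholipase PLA2G4A were followed in MDCK, an epithelial line derived from dog kidney, with and without exposure to Yoda1. They were found by symbol in the deposited gene table, as 3 of the 13022 gene IDs that carry one among 31121 IDs in all. All 3 passed the filter on low counts, with 14169 genes. Their IDs are ENSCAFG00845006713 (AREG), ENSCAFG00845005378 (PTGS2) and ENSCAFG00845005405 (PLA2G4A). The genes were picked with earlier results of these data known. The rule does not state which values led to the choice; it was taken to be the 24 h response for AREG and PTGS2 and the difference between times for PLA2G4A. Their values at 24 h and in that difference are therefore a description with no test, and so are all values of PLA2G4A and all comparisons that share the 24 h libraries.

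The 12 libraries form 4 groups of 3. C1 and C2 were cultured without Yoda1, and the deposited sample sheet places them at 12 h and 24 h. T1 and T2 received 25 µM Yoda1, a small-molecule agonist of the mechanically gated cation channel Piezo1, for 12 h and 24 h. All groups were the same line, grown in DMEM with fetal bovine serum. No source used here gives the vehicle of the controls. The study's title concerns Piezo1 activation and the closing of epithelial gaps. The labels number the replicates and do not call them separate cultures, so the errors and p-values measure only how far these libraries differ, and part of that may be technical.

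Amphiregulin is made as a membrane-anchored precursor that metalloproteases, above all ADAM17, cut loose to bind the EGF receptor. In the prostaglandin route, PLA2G4A responds to calcium and frees arachidonic acid from membrane phospholipids. The cyclooxygenases PTGS1 and PTGS2 turn it into prostaglandin H2, from which the terminal synthases make prostaglandin E2 and its relatives. Prostaglandin E2 leaves the cell through transporters such as ABCC4, acts on the receptors PTGER1 to PTGER4, and is inactivated by HPGD. In kidney epithelium prostaglandin E2 is known for its effects on salt and water transport, and both PTGS2 and AREG are known as rapidly inducible genes.

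Library totals ran from 20709218 to 38889592 counts. The C2 libraries were the least alike: the chi-square between 2 libraries, divided by the number of genes, was 46.8 to 89.7 in C2 and 5.21 to 22.9 in the other groups. Of 11 epithelial markers the files name 6, and all 6 averaged at least 1 CPM in every group. Summed, they reached 2372 to 2676 CPM (counts scaled to library size by TMM) in C1 and 1872 to 2068 CPM in T1, then 2493 to 2604 CPM in C2 and 1599 to 1758 CPM in T2. CDH1, the adhesion protein E-cadherin, and the keratin KRT18 make up most of that sum. CDH1 fell at both times and KRT18, OCLN and GRHL2 at 24 h, whereas CLDN7 and ESRP1 were called at neither. Of the 6, 16.7% were called at 12 h and 66.7% at 24 h, against 6.99% and 18.6% of all genes tested. CLDN7, a claudin of tight junctions, had higher means with Yoda1 than without, at 213 ± 20.6 against 186 ± 19.8 CPM at 12 h and 198 ± 24.4 against 166 ± 14.5 CPM at 24 h. CDH1 went from 1090 ± 104 CPM without Yoda1 to 675 ± 15.4 CPM with it at 24 h. The 10 fibroblast markers summed to 6.83 to 8.69, 4.01 to 4.99, 5.79 to 7.598 and 5.63 to 6.62 CPM in C1, T1, C2 and T2, with DCN and LUM at 0 counts in all libraries. The 6 of 8 endothelial markers named in the files summed to 14.6 to 16.8, 9.92 to 12.9, 14.2 to 15.98 and 11.1 to 12.99 CPM in the same order. The 6 of 9 leukocyte markers summed to 2.13 to 2.69, 1.25 to 2.78, 1.87 to 2.22 and 1.65 to 2.29 CPM. KDR made up most of the endothelial sum, at 12.3 ± 1.12, 9.77 ± 1.46, 10.7 ± 1.53 and 9.96 ± 1.03 CPM in C1, T1, C2 and T2. PDGFRA, the largest of the fibroblast markers, stood at 4.02 ± 1.01, 3.47 ± 0.478, 4.84 ± 0.441 and 4.87 ± 0.345 CPM. Neither was called at either time. The scarce markers ACTA2 (fibroblast, 12 h), TIE1 (endothelial, both times) and VWF (endothelial, 24 h) fell. Single libraries decided some of these calls (edgeR adjusted p from 0.05 to 0.138 where lost): ACTA2 without T1 replicate 1 or 3, OCLN without T2 replicate 2 or 3, GRHL2 without those or C2 replicate 3, and VWF without any 1 of C1 replicates 1 and 3, C2 replicates 1 and 3, T1 replicate 1 and the T2 libraries. With limma on log2(TPM + 1), TIE1 at 12 h and OCLN, GRHL2 and VWF at 24 h were not called (adjusted p = 0.0527, 0.098, 0.0566 and 0.11). With only the 6 libraries compared, OCLN, GRHL2 and VWF were not called (edgeR adjusted p = 0.0669, 0.0592 and 0.116). The epithelial and endothelial sums were lower with Yoda1 than without at both times, and the fibroblast sum at 12 h. The part of these sums in the results below was not tested. In bulk RNA, fewer cells of a type and less RNA per cell cannot be told apart.

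AREG was lowest in the 24 h controls and highest after 24 h with Yoda1. In C1 the libraries held 17.2, 15.2 and 13.1 CPM, and in T1 25.3, 25.8 and 20.3 CPM. The T1 libraries all lay above those of C1. In C2 the values were 12.7, 4.32 and 3.95 CPM, and in T2 65.8, 78.1 and 80.0 CPM. Replicate 1 of C2 thus stood well above the other C2 libraries, while the T2 libraries lay close together and far above every other library of the series. The counts behind these levels were 142 to 493 in C2 and 2021 to 2962 in T2.

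**Figure D1:**
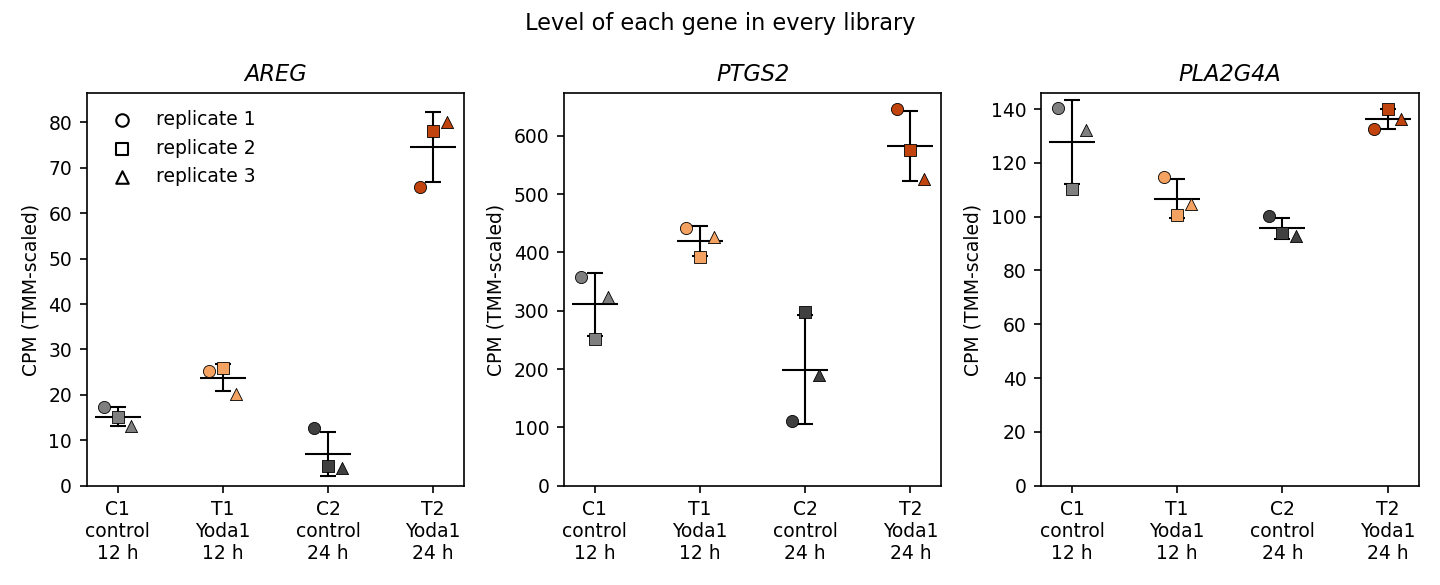
Level of AREG, PTGS2 and PLA2G4A in each library (vertical axes: TMM-scaled CPM, starting at 0), by group; symbols mark the replicate number, long bars the mean and error bars the SD of 3 libraries. The T2 libraries of AREG (65.8 to 80.0 CPM) and PTGS2 (525 to 646 CPM) lie above all others, and for PLA2G4A the C2 libraries (92.7 to 100.2 CPM) lie lowest.

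At 12 h the AREG mean was 23.8 ± 3.05 CPM in T1 against 15.2 ± 2.08 CPM in C1 (SD, n = 3 each), a log2 fold change of 0.65 ± 0.35 (SE). If AREG was chosen for its 24 h response, as assumed here, this comparison uses other libraries than the choice did. It missed the threshold in the fit of all 12 libraries (edgeR adjusted p = 0.303, n = 3 per group; 95% interval -0.14 to 1.43). That fit shares 1 estimate of the spread among the 4 groups. With only the 6 libraries of C1 and T1 the estimate was 0.64 ± 0.13 and AREG was called (edgeR adjusted p = 0.0137). Without C2 replicate 1 it was 0.65 ± 0.12 and AREG was called (edgeR adjusted p = 0.00707). These fits also called more of all genes tested, 12.6% and 11.6%, against 6.99% with all 12 libraries. Without C2 replicate 2 or 3 AREG was not called (edgeR adjusted p = 0.233 and 0.221). With the replicate block its estimate was 0.65 ± 0.36 and was not called (edgeR adjusted p = 0.315). The estimate at 12 h rests on the C1 and T1 libraries, so leaving out C2 libraries could hardly move it. Its error uses the spread shared by all groups in the fit, and that error did change. The coefficient of variation of AREG between libraries was 70.8% in C2 and 13.7%, 12.8% and 10.3% in C1, T1 and T2. What lay behind that spread was not tested.

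At 24 h the AREG mean was 74.7 ± 7.70 CPM in T2 against 6.99 ± 4.94 CPM in C2 (SD, n = 3 each). The log2 fold change was 3.41 ± 0.38, or 10.6-fold, rank 20 from the top among the 14169 genes. Its size depended on C2: without C2 replicate 1 it was 4.17, and without C2 replicate 3 it was 3.12. The control mean was also lower at 24 h: C2 against C1 had a log2 difference of -1.11 ± 0.37 (-1.88 without C2 replicate 1). The lowest C1 library (13.1 CPM) lay just above the highest C2 library (12.7 CPM). T2 had a higher mean than T1, by 1.65 ± 0.35. Neither difference was called in the fit of all 12 libraries (edgeR adjusted p = 0.294 and 0.142, n = 3 per group). That fit called 0.162% and 0.127% of all genes in these comparisons. The T2 against C2 difference thus holds both a higher treated and a lower control mean than at 12 h, and these comparisons share libraries with it.

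PTGS2, the inducible cyclooxygenase, showed the same order of groups at a higher level. The C1 libraries held 359, 252 and 323 CPM and the T1 libraries 442, 391 and 426 CPM. The lowest T1 library stood above the highest C1 library. The C2 libraries held 110, 298 and 189 CPM, a 2.701-fold span, and the T2 libraries 646, 576 and 525 CPM. In C2 replicate 1 PTGS2 was the lowest of its group, whereas AREG was the highest of its group in that library.

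At 12 h PTGS2 was at 420 ± 26.0 CPM in T1 against 311 ± 54.4 CPM in C1 (SD, n = 3 each), a log2 fold change of 0.43 ± 0.28 that was not called (edgeR adjusted p = 0.397, n = 3 per group; 95% interval -0.19 to 1.06). With only the 6 libraries of the comparison it was 0.43 ± 0.12 and was called (edgeR adjusted p = 0.044), as were 12.6% of all genes tested. With the replicate block it was 0.45 ± 0.27 and was not called (edgeR adjusted p = 0.367). Counting AREG and PTGS2 together, 0 of 2 were called at 12 h in the fit of all libraries, where 6.99% of all genes tested were called. Both had T1 libraries wholly above C1, as did 16.4% of all genes tested.

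At 24 h PTGS2 was at 582 ± 60.3 CPM in T2 and 199 ± 94.3 CPM in C2, a log2 fold change of 1.55 ± 0.29 or 2.93-fold. Without C2 replicate 1 the value was 1.26 and without C2 replicate 2 it was 1.96. The C2 mean was lower than that of C1 at a log2 difference of -0.64 ± 0.28, with overlapping libraries. That difference was -1.05 without C2 replicate 2 and -0.35 without C2 replicate 1. T2 was higher than T1 by 0.47 ± 0.28 with libraries that did not overlap. Neither difference was called in the fit of all 12 libraries (edgeR adjusted p = 0.41 and 0.666).

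PLA2G4A, the calcium-dependent phospholipase, had a lower mean with Yoda1 than without at 12 h and a higher one at 24 h. The C1 libraries held 140, 110 and 132 CPM and the T1 libraries 115, 101 and 105 CPM, so that the treated libraries lay low but overlapped the controls. Within each of the 3 same-numbered pairs the T1 library was the lower one, and the log2 fold change with the replicate block was -0.25 ± 0.07. The labels do not give these pairs, and how many of all genes behaved so was not counted. The 12 h difference was not called with the block or in the main fit (edgeR adjusted p = 0.0603 and 0.0968, n = 3 per group). The C2 libraries held 100.2, 94.0 and 92.7 CPM and the T2 libraries 132, 140 and 136 CPM, with every T2 library above every C2 library. The log2 fold change was -0.26 ± 0.09 at 12 h (106.7 ± 7.35 against 127.6 ± 15.6 CPM, SD, n = 3 each) and 0.51 ± 0.09 at 24 h (136.1 ± 3.78 against 95.6 ± 4.01 CPM). The difference of the responses was 0.77 ± 0.12, against 2.76 ± 0.51 for AREG and 1.11 ± 0.40 for PTGS2. Those of AREG and PTGS2 were not called in the fit of all 12 libraries (edgeR adjusted p = 0.07 and 0.372) or with the replicate block (0.187 and 0.37). AREG showed the larger difference and PLA2G4A the smaller error. For PLA2G4A the difference was 0.76 with the replicate block and was not called there (edgeR adjusted p = 0.12).

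PLA2G4A differed less in fold terms than AREG and PTGS2. Its coefficient of variation between libraries was 4.196% in C2, where AREG reached 70.8% and PTGS2 47.3%, and 2.77% in T2. In T1 it was 6.89%, against 6.20% for PTGS2 and 12.8% for AREG, and in C1 12.2%, against 17.5% and 13.7%. C2 was lower than C1 by 0.42 ± 0.09 on the log2 scale and T2 higher than T1 by 0.35 ± 0.09, and the libraries overlapped in neither case. Neither difference was called in the fit of all 12 libraries (edgeR adjusted p = 0.1 and 0.201). The T2 level was close to that of C1, the 12 h control: the T2 libraries spanned 132 to 140 CPM and the C1 libraries 110 to 140 CPM. The 24 h response was nearly the same without any single library, at 0.49 to 0.55.

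In order of mean level, AREG and PTGS2 both ran T2, T1, C1, C2, and PLA2G4A ran T2, C1, T1, C2. For AREG no neighbours in that order overlapped. For PTGS2 the C1 and C2 libraries overlapped. For PLA2G4A the T2 and C1 libraries overlapped, as did C1 and T1. At 24 h all 3 genes had T2 libraries wholly above C2, which held for 16.6% of all genes tested; the genes were chosen in part from this contrast. T2 libraries lay wholly above T1 for all 3, against 10.9% of all genes, and C2 libraries wholly below C1 for AREG and PLA2G4A, against 6.85%. These comparisons use 24 h libraries that the choice was taken to have used, so they too are a description with no test.

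**Figure D2:**
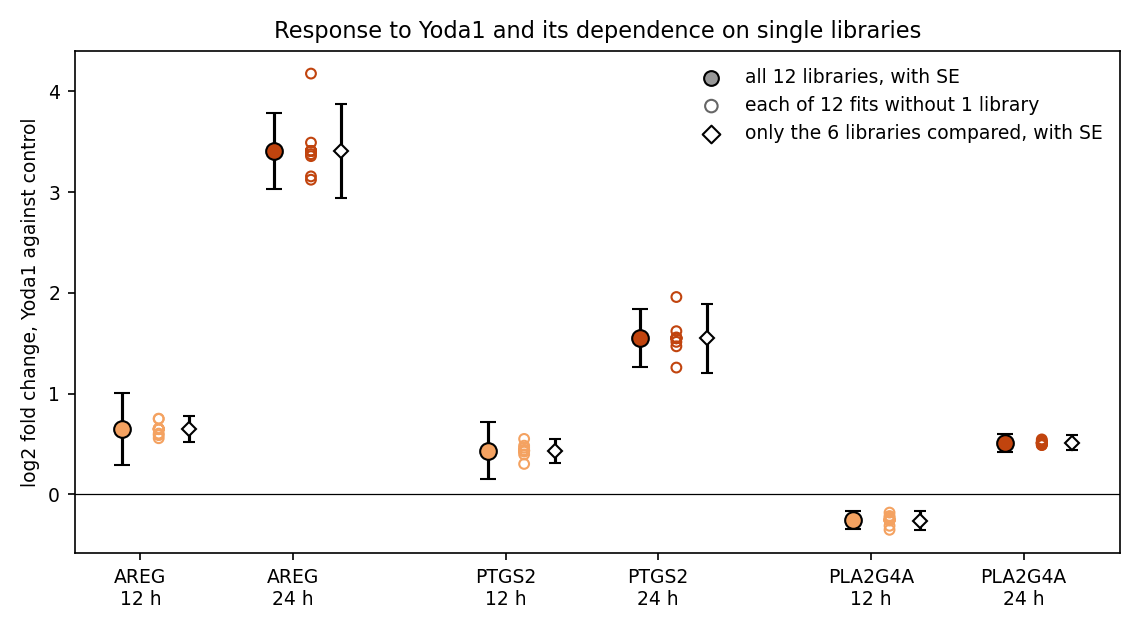
Log2 fold change of Yoda1 against control at 12 h and 24 h (vertical axis) for the 3 genes: filled circles with SE from all 12 libraries, open circles from the 12 fits that each left out 1 library, diamonds with SE from the 6 libraries compared. The AREG value at 24 h spans 3.12 to 4.17 over the fits without 1 library, and PLA2G4A lies below 0 at 12 h and above 0 at 24 h in all of them.

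Per length, PTGS2 was the most abundant of the 3 in every group. Levels in the deposited TPM, which corrects for transcript length, were 156 ± 32.01, 221 ± 19.8, 103 ± 50.8 and 308 ± 40.5 for PTGS2 in C1, T1, C2 and T2 (SD, n = 3 each). PLA2G4A stood at 93.2 ± 14.4, 81.9 ± 7.98, 71.3 ± 4.22 and 105 ± 0.892 TPM. AREG went from 29.9 ± 4.12 in C1 and 49.4 ± 6.06 in T1 to 14.2 ± 10.2 in C2 and 156 ± 11.7 TPM in T2. By mean TPM AREG ranked 7603 among the 14169 genes in C2 and 1118 in T2, so in T2 it stood above PLA2G4A and below PTGS2. All 36 deposited count values of the 3 genes were whole numbers, where 91.1% of all values in the table were.

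The rest of the route and of the EGF receptor family was read from 10 lists with 138 symbols, of which the files name 85 and 65 passed the filter on low counts. At 12 h edgeR called 6 of these 65 genes (9.23%), 2 higher and 4 lower, against 6.99% of all genes tested (3.01% higher and 3.97% lower). At 24 h it called 12 (18.5%), 4 higher and 8 lower, against 18.6% of all genes tested (8.96% higher and 9.61% lower). Pooled over the lists, these shares are near the background. Single lists, of 3 to 11 tested genes each, ran from 0% to 30% called at 12 h and from 0% to 57.1% at 24 h. The highest were the cAMP response genes at 12 h and the EGF receptor family, shedding and inhibitor genes at 24 h. No list was tested as a set. The median log2 fold change over the 65 genes was -0.027 at 12 h and -0.107 at 24 h, beside 0.006 and -0.015 over all genes tested. Leaving out C1 replicate 1, 2 or 3 gave 3, 2 and 2 calls at 12 h, and 1 gene was called without either T1 replicate 1 or T1 replicate 3. The shares of all genes fell too, to 2.76%, 3.02% and 2.46% without the C1 libraries and 1.73% and 1.16% without those T1 libraries.

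Among EGF receptor ligands 3 of 10 could be tested beside AREG. At 12 h 0 were called (0 at an unadjusted p under 0.05, 0 by DESeq2, 0 by limma voom) and 1 fell at 24 h. The calls were 0% and 33.3% of the 3, against 6.99% and 18.6% of all genes tested. EPGN, epigen, fell at 24 h and stood at 0.246 ± 0.0948 CPM in T2 against 0.763 ± 0.193 CPM in C2 (log2 fold change -1.60 ± 0.38, edgeR adjusted p = 0.0125, n = 3 per group), at only 173 counts over all libraries. It was not called without T2 replicate 2 or T2 replicate 3 (edgeR adjusted p = 0.0641 and 0.0521). NRG1, neuregulin-1, a ligand of ERBB3 and ERBB4, stood at 68.6 ± 7.71, 59.7 ± 6.26, 60.7 ± 7.07 and 59.9 ± 10.8 CPM in C1, T1, C2 and T2. EGF had group means of at most 1.25 CPM and was not called, and BTC, betacellulin, had 1 count in 1 library of 12. EREG, HBEGF, TGFA and the receptor EGFR are not analysed here.

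Of 7 receptor, shedding and inhibitor genes edgeR called 0 at 12 h (2 had an unadjusted p under 0.05; DESeq2 called 2 and limma voom 0), and 1 rose and 3 fell at 24 h. The 24 h calls made up 57.1% of the 7, against 18.6% of all genes tested. ERRFI1, a feedback inhibitor of the EGF receptor that is itself induced by growth factors, rose at 24 h. It reached 167 ± 5.09 CPM in T2 against 113 ± 14.2 CPM in C2 (0.57 ± 0.09, edgeR adjusted p = 0.00147, n = 3 per group), and stood at 104 ± 4.24 in C1 and 108 ± 7.67 CPM in T1. ERBB2, the ligandless partner receptor, fell from 249.5 ± 41.0 to 185 ± 5.35 CPM (-0.43 ± 0.10, edgeR adjusted p = 0.0105), and was not called with only the 6 libraries (edgeR adjusted p = 0.0626). RHBDF1, a rhomboid-like partner of ADAM17, fell from 95.3 ± 7.28 to 74.2 ± 1.47 CPM, and ADAM10, a shedding protease, from 214 ± 25.1 to 159.9 ± 10.7 CPM. ADAM10 was not called without T2 replicate 2 or 3 (edgeR adjusted p = 0.0734 and 0.0762) or by limma on log2(TPM + 1) (adjusted p = 0.111). ADAM17, the main AREG sheddase, was not called at either time, at 171 ± 8.89, 169 ± 7.42, 179 ± 22.3 and 160.1 ± 7.08 CPM in C1, T1, C2 and T2.

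ERRFI1 was also the 1 list gene of 65 that differed between T2 and T1 (0.63 ± 0.09, edgeR adjusted p = 0.0148, n = 3 per group), where 0.127% of all genes were called and 0.0423% called higher. Without C2 replicate 1, 4 list genes and 0.697% of all genes were called. The ERRFI1 call was lost without T1 replicate 2 or 3 or any 1 T2 library (edgeR adjusted p = 0.099, 0.117, 0.0786, 0.109 and 0.0598 in that order). Like AREG, ERRFI1 was higher in each T2 library than in any library of the other groups.

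In the arachidonic acid list 10 of 28 genes were tested, and 1 fell at each time. That was 10% at each time, against 6.99% of all genes tested at 12 h and 18.6% at 24 h. PLA2G7, a secreted phospholipase that cleaves platelet-activating factor, fell at 12 h from 366 ± 14.96 to 236 ± 2.54 CPM (-0.63 ± 0.09, edgeR adjusted p = 0.0028, n = 3 per group). It kept this call in all 12 fits that left out 1 library. At 24 h it stood at 310 ± 37.4 in C2 and 307 ± 30.4 CPM in T2 (-0.01 ± 0.09), and its difference between times was not called. PLA2G12A fell at 24 h by 0.31 ± 0.10 on the log2 scale from 34.8 ± 3.65 to 28.1 ± 1.53 CPM (edgeR adjusted p = 0.0435). That call was lost without 10 of the 12 libraries, the exceptions being C1 replicate 1 and C2 replicate 1, with an edgeR adjusted p of up to 0.17. The remaining genes of the list, which rejoin arachidonic acid to lipids or release it by other paths, were not called at either time. PLA2G6 is not analysed here.

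PTGS1, the constitutive cyclooxygenase, had 4 counts over the 12 libraries and at most 1 in any library, where PTGS2 had 4287 to 19821. A count of 0 allows up to 3 counts, or 0.0772 to 0.148 CPM depending on the library (counting error only). Among 5 tested synthases edgeR called 0 at either time, with 1 at an unadjusted p under 0.05 at each. It called 6.99% of all genes tested at 12 h and 18.6% at 24 h. DESeq2 called 0 at 12 h and 1 at 24 h, and limma voom 0 at both. PTGES, the inducible prostaglandin E synthase that works with PTGS2, stood at 34 ± 4.11 in C1 and 23.5 ± 0.851 CPM in T1 (-0.54 ± 0.23, edgeR adjusted p = 0.183, n = 3 per group). It was called lower with only those 6 libraries (edgeR adjusted p = 0.00991) and without C2 replicate 2 (edgeR adjusted p = 0.0221). At 24 h it was 36.3 ± 12.5 CPM in C2 and 33.5 ± 6.60 CPM in T2. PTGES2 was 45.1 ± 6.00, 42.7 ± 2.74, 47.8 ± 5.41 and 41.5 ± 2.30 CPM in C1, T1, C2 and T2, and PTGES3 is not analysed here. TBXAS1, the thromboxane synthase, was picked out after its values were seen: the C2 libraries held 0.927, 35.9 and 15.95 CPM, and replicate 1, the C2 library with the least PTGS2, was again the lowest. TBXAS1 averaged 8.40 ± 1.32 in C1, 9.25 ± 0.179 in T1 and 2.85 ± 0.237 CPM in T2. Its log2 fold change at 24 h was -2.62 ± 0.90 and was not called (edgeR adjusted p = 0.0733). Of 5 tested genes of the lipoxygenase and epoxide branches, which use the same arachidonic acid, edgeR and limma voom called 0 at either time and DESeq2 1 at 12 h and 0 at 24 h (1 and 2 at an unadjusted p under 0.05).

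**Figure D3:**
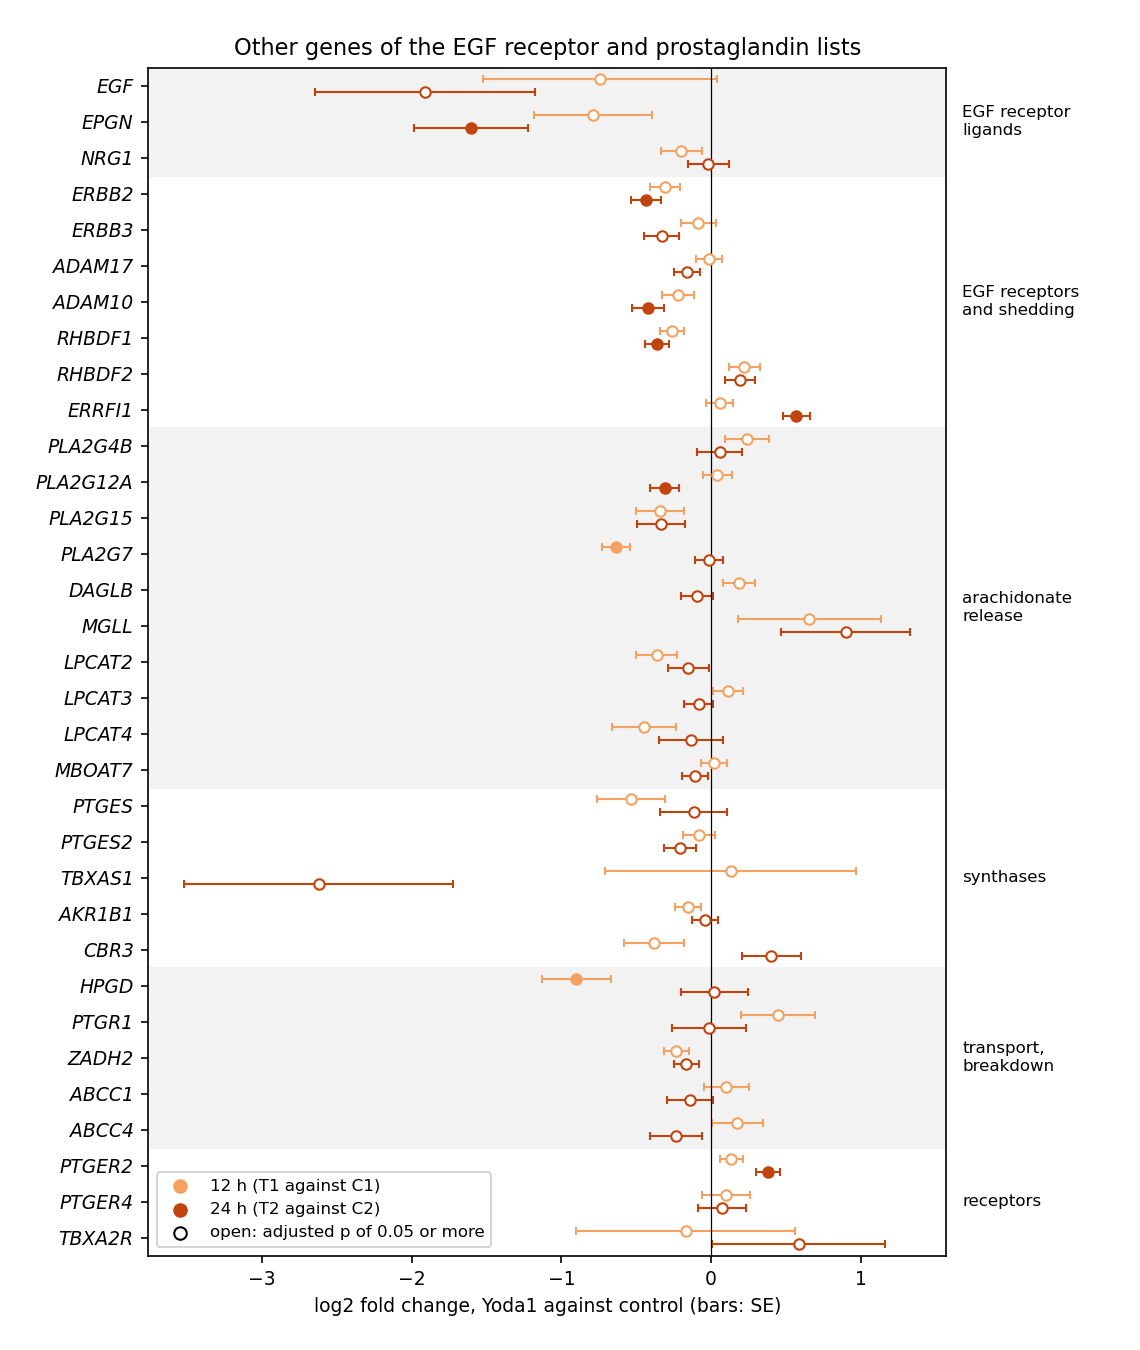
Log2 fold change of Yoda1 against control (horizontal axis, bars SE) at 12 h and 24 h for the tested genes of 6 lists on EGF receptor signalling and prostaglandins, grouped by role; filled points had an edgeR adjusted p under 0.05. At 24 h ERRFI1 and PTGER2 are filled to the right of 0, and EPGN, ERBB2, ADAM10, RHBDF1 and PLA2G12A to the left.

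HPGD, which inactivates prostaglandin E2, was scarce and fell at 12 h from 3.48 ± 1.01 to 1.86 ± 0.322 CPM (-0.90 ± 0.23, edgeR adjusted p = 0.034, n = 3 per group). The call was lost without any 1 of the C1 or T1 libraries (edgeR adjusted p = 0.052 to 0.148) and without T2 replicate 2 or 3 (0.0541 and 0.0547). It was also lost by limma voom (adjusted p = 0.0522) and by limma on log2(TPM + 1) (-0.459, adjusted p = 0.094). At 24 h HPGD was 2.84 ± 0.525 in C2 and 2.89 ± 0.235 CPM in T2. PTGR1, a reductase of prostaglandin breakdown, ranged most in C2, with 739, 1689 and 1846 CPM; it was picked out after its values were seen. ABCC4, which exports prostaglandin E2, stood at 397 ± 49.7, 449 ± 82.6, 502 ± 103 and 427 ± 63.5 CPM in C1, T1, C2 and T2 and was called at neither time. Over the 5 tested genes of transport and breakdown 1 fell at 12 h and 0 were called at 24 h (0 at an unadjusted p under 0.05, 0 by DESeq2, 0 by limma voom). These calls were 20% and 0% of the 5, against 6.99% and 18.6% of all genes tested. The uptake transporter SLCO2A1 did not pass the filter on low counts.

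Of 3 tested prostanoid receptors 0 were called at 12 h (0 at an unadjusted p under 0.05, 0 by DESeq2, 0 by limma voom) and 1 rose at 24 h. Among all genes tested 6.99% were called at 12 h and 18.6% at 24 h, of which 8.96% higher. PTGER2, a receptor that raises cAMP on binding prostaglandin E2, stood at 169 ± 9.24 CPM in T2 against 130.3 ± 8.37 CPM in C2 (0.38 ± 0.08, edgeR adjusted p = 0.00624, n = 3 per group) and kept its call in all 12 fits that left out 1 library. At 12 h it was 157 ± 12.2 in C1 and 172 ± 8.79 CPM in T1 (0.14 ± 0.08, edgeR adjusted p = 0.327); the difference between the times was not called. PTGER2 also had a lower mean in C2 than in C1, as AREG, PTGS2 and PLA2G4A had, but was not called there (-0.27 ± 0.08, edgeR adjusted p = 0.23). The median log2 difference of C2 against C1 over all genes tested was 0.016, and how many genes had a lower mean was not counted. PTGER4, the other receptor that raises cAMP, was 15.6 ± 1.95, 16.7 ± 1.66, 15.4 ± 4.00 and 16.1 ± 1.09 CPM in C1, T1, C2 and T2. PTGER3 had 1 count in all, and PTGER1 is not analysed here.

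**Figure D4:**
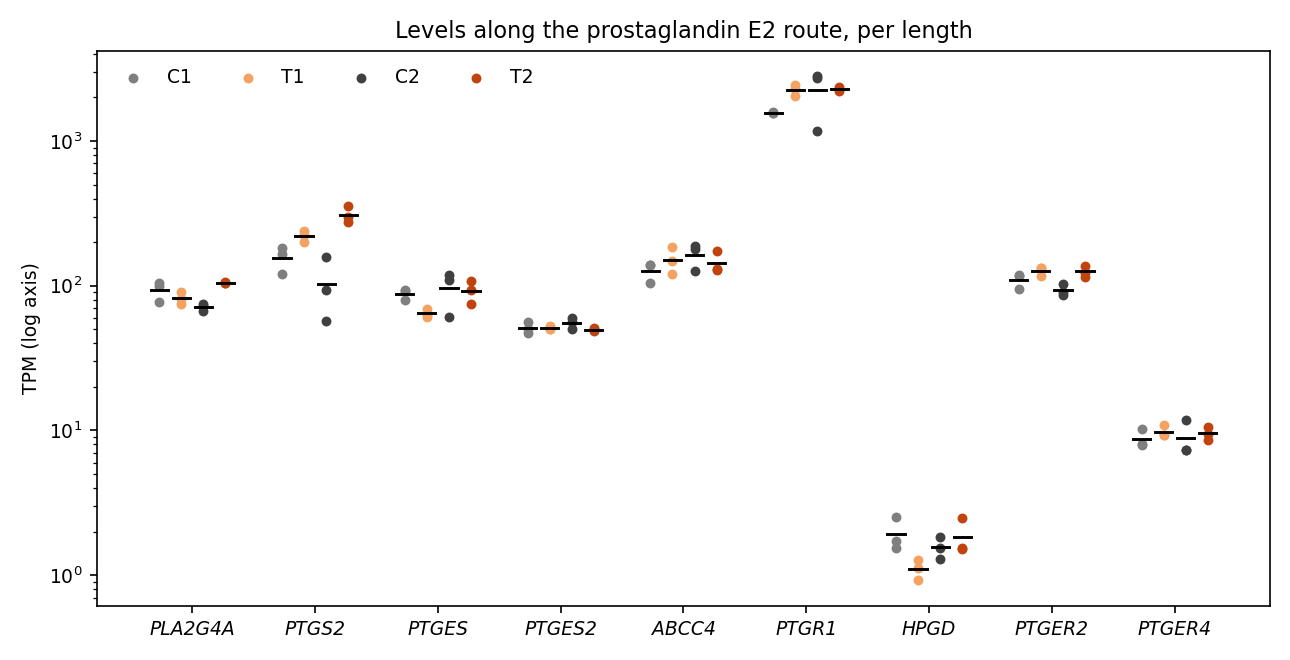
Deposited TPM (log axis) in each library for genes along the prostaglandin E2 route, by group; points are libraries and bars the mean of 3. PTGS2 spans 56.8 to 353 TPM over the libraries, and the C2 libraries spread widely in PTGS2 and PTGR1.

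Genes that respond to cAMP, the second messenger of PTGER2, were called in both directions: at 12 h 2 of 10 rose and 1 fell, and at 24 h 1 fell. That was 30% of the 10 at 12 h and 10% at 24 h, against 6.99% and 18.6% of all genes tested. NR4A2, an orphan nuclear receptor, rose at 12 h from 2.41 ± 0.156 to 4.54 ± 0.208 CPM (0.91 ± 0.19, edgeR adjusted p = 0.0159, n = 3 per group). Its call was lost without C1 replicate 2 or 3 or T1 replicate 1 or 3 (edgeR adjusted p = 0.059 to 0.0646). PDE4D, a phosphodiesterase that degrades cAMP, rose by 0.34 ± 0.08, a call lost in 5 fits that left out a C1 library or T1 replicate 1 or 3 (edgeR adjusted p = 0.0581 to 0.112). FOS, an immediate early transcription factor, fell at both times. It went from 63.8 ± 2.83 to 44.1 ± 1.18 CPM at 12 h and from 69.5 ± 11.8 to 48.1 ± 1.61 CPM at 24 h, with edgeR adjusted p of 0.0117 and 0.00419. At 12 h that call was lost without T1 replicate 1 or 3 (edgeR adjusted p = 0.0563 and 0.0518).

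AREG is also known as a target of the coactivator YAP, and 11 of 18 listed targets and partners of YAP were tested. At 12 h edgeR called 0 (2 had an unadjusted p under 0.05, and DESeq2 and limma voom called 0), and at 24 h 2 rose and 1 fell. The calls made up 0% and 27.3% of the 11, against 6.99% and 18.6% of all genes tested. TEAD4, a DNA-binding partner of YAP, rose from 45.7 ± 7.64 to 65.8 ± 4.197 CPM (0.53 ± 0.10, edgeR adjusted p = 0.00436, n = 3 per group). AJUBA rose by 0.27 ± 0.06, a call lost without C2 replicate 3 or T2 replicate 3 (edgeR adjusted p = 0.0526 and 0.0535). With only the 6 libraries it was lost too (edgeR adjusted p = 0.0591). CRIM1 fell by 0.52 ± 0.11. CCN1, a widely used readout of YAP, was called at neither time, at 126 ± 20.4, 139 ± 14.2, 170.1 ± 42.9 and 144 ± 20.04 CPM in C1, T1, C2 and T2.

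PTGS2 mRNA carries AU-rich elements, which proteins bind to shorten or lengthen its life. Of 6 tested genes for such proteins 1 fell at each time, the same gene. That was 16.7% at each time, against 6.99% of all genes tested at 12 h and 18.6% at 24 h. ZFP36L1, which promotes decay of AU-rich mRNAs, fell from 187 ± 7.09 to 137 ± 6.27 CPM at 12 h (-0.45 ± 0.10, edgeR adjusted p = 0.0227, n = 3 per group) and from 182 ± 22.8 to 115 ± 15.3 CPM at 24 h (-0.66 ± 0.10, edgeR adjusted p = 0.0014). The 24 h call held in all 12 fits without 1 library. The 12 h call was lost without any 1 of the C1 or T1 libraries (edgeR adjusted p = 0.0589 to 0.0989) and with the replicate block (edgeR adjusted p = 0.0561). It was also lost by limma on log2(TPM + 1) (adjusted p = 0.0645). ELAVL1 (HuR), which stabilises such mRNAs, was 99.6 ± 4.36, 106 ± 1.402, 103 ± 7.20 and 117 ± 6.23 CPM in C1, T1, C2 and T2 and was not called.

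Between the control times 0 of the 65 list genes were called by edgeR's quasi-likelihood test (8 at an unadjusted p under 0.05, 1 by DESeq2, 0 by limma voom), where 0.162% of all genes were. In the difference of the responses 0 were called as well (8 at an unadjusted p under 0.05, 2 by DESeq2, 0 by limma voom), against 0.155% of all genes. Without C2 replicate 1 these counts were 2 and 4, beside 1.43% and 2.52% of all genes. The first was 2 without C2 replicate 2, beside 1.96% of all genes.

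In the RefSeq gene table of the assembly UU_Cfam_GSD_1.0, which is not the annotation of these files, PTGS2 and PLA2G4A are adjacent protein-coding genes. Among protein-coding genes AREG lies next to EREG, followed by EPGN and MTHFD2L. EPGN fell at 24 h as given above, and MTHFD2L, a mitochondrial folate enzyme, stood at 4.43 CPM in C2 and 3.12 CPM in T2 and was not called (edgeR adjusted p = 0.247, n = 3 per group). PDC, on the other side of PTGS2, had a mean of at most 0.0203 CPM in any group.

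The genes with a symbol whose levels ran most like each of the 3 over the 12 libraries were taken by Pearson's r of log2 CPM, as a description in libraries that share treatment, time and depth. For AREG they were RABGGTB, a subunit of the Rab prenylating enzyme (r = 0.976), CYCS, cytochrome c (0.965), and TMEM151A (0.959). RABGGTB moved over a far narrower range than AREG, with 68.6 ± 3.47 CPM in C2 and 91.0 ± 2.55 CPM in T2. For PTGS2 they were TNFRSF11B, the decoy receptor osteoprotegerin (0.957), LONRF3 (0.947) and MYO10, a filopodial myosin (0.944). TNFRSF11B, at 1.03 ± 0.422 CPM in C2 and 3.57 ± 0.754 CPM in T2, had the largest 24 h fold change of these, 1.79 ± 0.29 on the log2 scale. For PLA2G4A they were PTER (0.917), RPS6KC1 (0.90) and PMPCA, a subunit of the mitochondrial processing peptidase (0.895). Between the 3 genes themselves r was 0.727 for AREG and PTGS2, 0.734 for AREG and PLA2G4A, and 0.628 for PTGS2 and PLA2G4A.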

How the data were processed

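Polyadenylated RNA of 12 MDCK libraries was sequenced as 101 bp pairs, per the labels' protocols. The authors deposited expected counts per gene, not normalized, and TPM for the same genes; per the submitters' processing notes, the tools included RSEM 1.3.3, STAR 2.7.10b and fastp 0.23.4. No source used here gives the genome build or the annotation. Expected counts were rounded, filtered with filterByExpr, scaled by TMM and fitted with edgeR 4.0.16 (R 4.3.3; quasi-likelihood, robust, a mean per group, 12 libraries). P-values were adjusted by Benjamini-Hochberg over 14169 genes and called under 0.05. SE is the absolute log2 fold change over the root of F. Totals of 20709218 to 38889592 counts and 3 libraries per group limit the precision.

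The members and the lists were chosen with earlier results of these data known. Named are the 3 genes, up to 4 called genes per list and comparison with the largest change, their nearest relatives, and 3 genes per member with the highest r (prior count 2). NRG1, EGF, TBXAS1, PTGR1, CCN1, ELAVL1, KDR, PDGFRA and the genomic neighbours were named outside that rule, after their values were seen. IDs without a symbol held 33.1% to 34.1% of counts and are not named. Alternatives were RLE or library-size scaling, DESeq2 1.42.0, limma 3.58.1 (voom, and log2(TPM + 1)), no or a stricter filter (5 CPM), the 6 libraries compared, a replicate block, and leaving out each library. Deviations from the group means of same-numbered C1 and T1 libraries correlated at 0.153, 0.283 and 0.115. The numbers were therefore read as possible pairs at 12 h, from the data and not the labels. Between C2 and T2 the correlations were 0.0631, -0.0767 and -0.0841, which gave no such ground at 24 h. The main fit used no pairs at either time. For the Yoda1 comparisons and their difference, the replicate block fitted the replicate number within each time, so at 24 h too. For C2 against C1 and T2 against T1 it fitted the number across both times.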

Additional observations from a re-analysis of the deposited data

Results flagged for a closer look

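The response of PLA2G4A to Yoda1 differed between the times by 0.77 on the log2 scale, from -0.26 at 12 h to 0.51 at 24 h, in the test of the difference itself. PLA2G4A was taken as chosen with this difference known, so the value is a description. Whether it was called in a given fit is therefore no support for it. The call was lost with the replicate block (0.76, edgeR adjusted p = 0.12) and with log2(TPM + 1). It held in 4 of the 12 fits that left out 1 library, those without C1 replicate 2, C2 replicate 1, C2 replicate 2 or T2 replicate 1, and the edgeR adjusted p reached 0.141 in the others. The size was 0.69 without C1 replicate 1 and 0.86 without C1 replicate 2.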

How the results depend on the processing

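The log2 fold changes of the 3 genes kept their sign at both times under all alternatives run. With only the 6 libraries compared, the 12 h values were 0.644 for AREG and 0.43 for PTGS2, now called. This fit leaves out C2 and T2 and tests fewer genes. It called 12.6% of all genes tested, against 6.99% with all 12 libraries. Without C2 replicate 1, 2 or 3 PTGS2 was not called at 12 h (edgeR adjusted p from 0.112). Leaving out 1 library gave 0.557 to 0.751 for AREG and 0.302 to 0.55 for PTGS2 at 12 h, 3.122 to 4.175 and 1.258 to 1.958 at 24 h, and 2.473 to 3.527 and 0.824 to 1.525 for the difference of responses. List genes called at 12 h numbered 10 by DESeq2, 10 with the 6 libraries and 1 to 9 without 1 library, against 6. Of all genes tested, 11.6%, 12.6% and 1.16% to 11.7% were called there, against 6.99%. At 24 h 8 to 18 list genes were called without 1 library, against 12, and 7.88% to 23.2% of all genes, against 18.6%. In the difference of responses DESeq2 called 2 list genes and fits without 1 library 0 to 4. The shares of all genes were 1.55% and 0% to 2.52%. For C2 against C1 the counts were 1 by DESeq2 and 0 to 2 without 1 library, beside 1.78% and 0.00694% to 1.96% of all genes. For T2 against T1 they were 2 by DESeq2, 4 with the 6 libraries and 0 to 4 without 1 library. The shares of all genes were 1.13%, 1.82% and 0.00695% to 0.697%. The cause was not tested. For the difference of responses a fit of 6 libraries could not be made.

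The replicate block fitted the replicate numbers at 24 h as well as at 12 h. It gave 6, 12, 0, 0 and 1 list genes called at 12 h, at 24 h, in the difference, between controls and between treated groups, as without the block. With the block the calls of PLA2G4A in the difference of responses (0.763, edgeR adjusted p = 0.12), of ZFP36L1 at 12 h and of MYO10, PLA2G12A and VWF at 24 h were lost (the last 4 with edgeR adjusted p = 0.0561, 0.058, 0.0695 and 0.0706), and no other call of a named gene changed. Over all genes, the block left 0 calls for the difference of responses against 22, and 3 between the controls against 23.

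Values near 0 reversed. ADAM17 at 12 h (-0.015) was 0.026 by library size, 0.052 with log2(TPM + 1), and -0.056 to 0.017 without 1 library. With log2(TPM + 1), PTGES2 and RPS6KC1 at 12 h were 0.002 and 0.025. Without 1 library PTGES2 ranged from -0.158 to 0.031 and RPS6KC1 from -0.093 to 0.009 at 12 h, and at 24 h HPGD from -0.115 to 0.149, PTGER4 from -0.041 to 0.304 and PTGES from -0.374 to 0.085. With library size alone, 59.4% of the genes called at 12 h were higher, against 43.1%.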
